A study of Homo sapiens with 21 samples.

Results

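The genes that copy DNA were followed across 21 RNA-seq libraries of MDA-MB-453, a human breast cancer cell line without estrogen receptor. The set holds 46 genes of the DNA replication machinery, listed by name for their role, out of 58735 genes in the table. The list was made with earlier results of these data known. All 46 passed the filter on low values and were tested among 14686 genes. They were grouped by role into origin licensing (11 genes), helicase activation (6), polymerases and primase (9), the sliding clamp, clamp loader and RPA (9), Okazaki fragment processing (3), nucleotide supply (5) and chromatin behind the fork (3).

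There were 7 groups of 3 libraries. Control cells received no treatment. Calcium (10 mM), cadmium (10 μM), GSK4716 (5 μM, an agonist of the orphan nuclear receptor ESRRB, in ethanol) and DES (diethylstilbestrol, 10 μM, an ESRRB antagonist, in ethanol) were each given for 24 h. In the groups DES+calcium and DES+cadmium, 10 μM DES was added 3 h before the same dose of the metal, which was then present for 24 h. According to the labels, cadmium was given in medium with a low level of charcoal-stripped serum, whereas the medium for GSK4716 and for calcium held no serum, and the medium of the single control group is not named. Medium and serum therefore cannot be told apart from treatment in at least part of the comparisons with control, and no label describes an ethanol control. Nothing in the labels says that the 3 libraries of a group came from separate cultures, so the p-values measure the spread between these libraries, which may be technical.

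Replication starts at origins where the origin recognition complex, CDC6 and CDT1 load the MCM2-7 helicase ring, a step called licensing that geminin (GMNN) blocks once S phase has begun. CDC45 and the GINS complex then turn the ring into an active helicase, DNA polymerase alpha with primase starts each strand, and polymerases delta and epsilon extend it while held by the PCNA clamp. Most of these genes are transcribed at the boundary between G1 and S phase under the control of E2F factors, so their RNA is a common measure of how many cells of a culture are cycling. In bulk RNA, fewer cycling cells and less RNA per cycling cell cannot be told apart.

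The libraries held 14435925 to 28424805 fragments assigned to genes (median 18314738), and a member was counted with 1 to 8870 fragments in a library (median 652). Of the 966 member values, 14 rested on fewer than 30 fragments, and all 14 were in cadmium replicate 3 or DES+cadmium replicate 2. These 2 libraries stood apart for the members: cadmium replicate 3 held the lowest of the 21 values for 33 members, and DES+cadmium replicate 2 for 8. The 18 genes of mitosis followed for comparison were also lowest there, at mean differences from control of -5.73 and -4.85 on the log2 scale, while 12 housekeeping genes were at 0.13 and 0.45. The 7 defining markers of the line given here were present in all 21 libraries, from FOXA1 at 53.2 to 223 FPKM (fragments per kilobase of gene, scaled to library size) to XBP1 at 430 to 1349 FPKM, while ESR1, PGR, KRT5 and KRT14, which are low or absent in this line, reached at most 0.699 FPKM. Of the markers of other cells, PTPRC, PECAM1 and COL3A1 were at or under 0.218 FPKM and COL1A1 was at 9.34 to 32.7 FPKM.

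**Figure D1:**
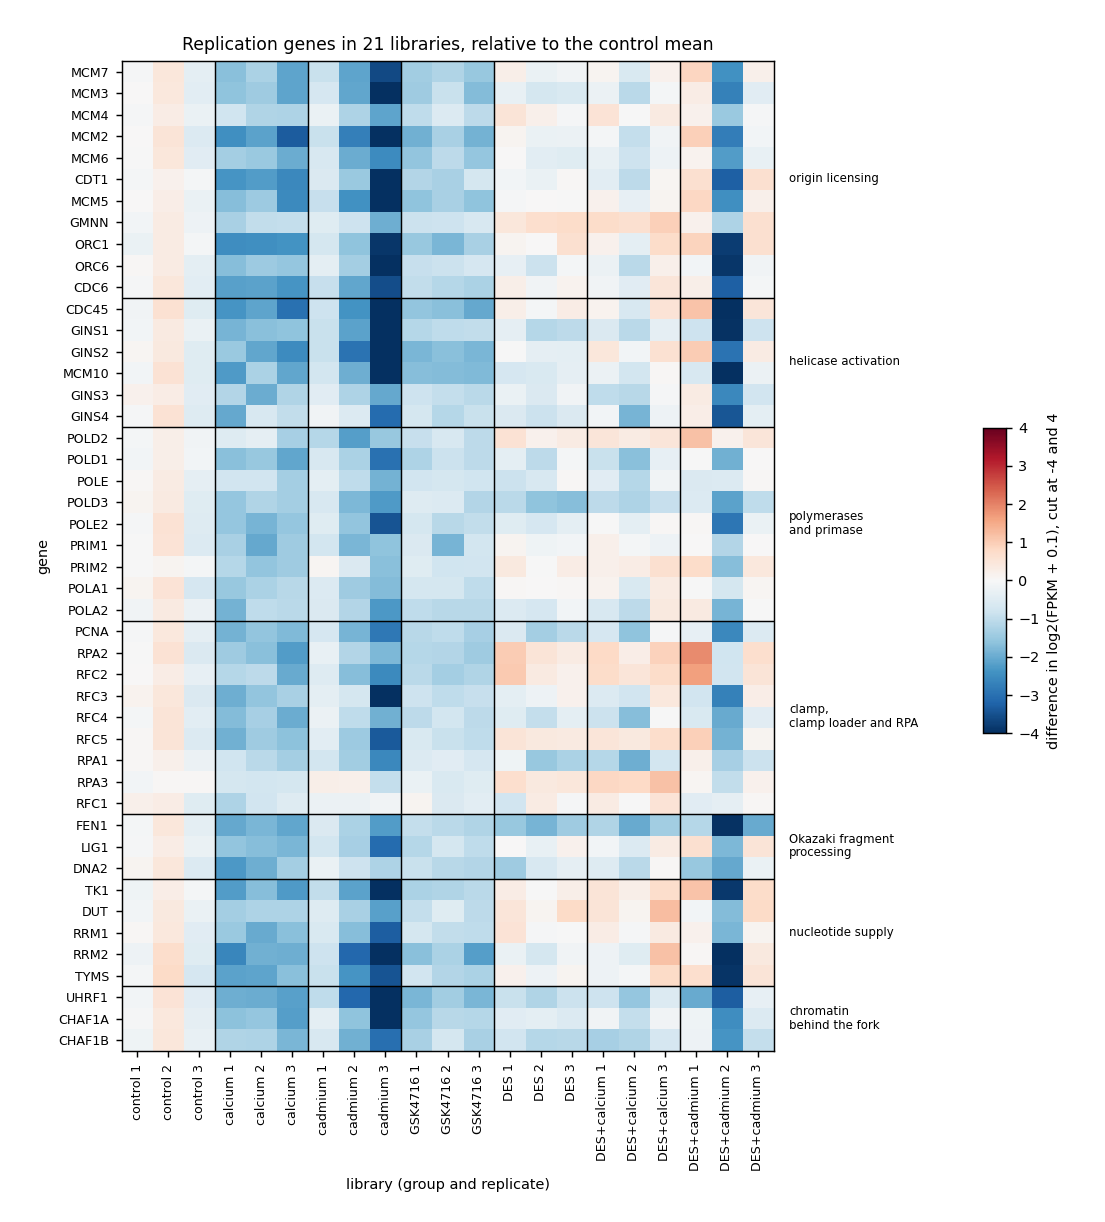
Difference of each of the 46 members (vertical axis, by role and then by control level) from its control mean on the log2(FPKM + 0.1) scale in each of the 21 libraries (horizontal axis). The colour scale is cut at -4 and 4, calcium and GSK4716 libraries are lower than control for nearly all members, and cadmium replicate 3 and DES+cadmium replicate 2 hold the lowest values.

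Promoter sequences of RefSeq on GRCh38.p14, from 250 bases before to 50 bases after each annotated start, were found for 39 of the 46 members. MCM4, MCM5, GINS4, POLD3, RPA2, RPA3 and DNA2 had none. The E2F-type octamers TTTCCCGC, TTTGGCGC, TTTCGCGC and TTTGCCGC, searched on both strands, were present for 20 of the 39 members (51.3%), against 1090 of 27305 genes with a promoter in the table (3.99%). The pentamer CCAAT, searched on both strands, was present for 24 of the 39 members (61.5%), against 39.7% of genes. A match is a description of these windows and not evidence of binding. The windows below run from 100 bases before to 20 bases after the start, 5′ to 3′ on the strand of the gene, with E2F-type octamers in capitals. In MCM2 matches on both strands overlap in a run of 12 capitals. Some genes have several annotated starts, and a gene counted as a match if any of its windows matched. MCM2, MCM3 and MCM7 are shown as parts of one ring, CDC6 as its loader, and GINS2, PCNA and UHRF1 as genes of later steps. For MCM7, PCNA and UHRF1 a window with an octamer is shown, while another window of each gene holds none. FEN1, RFC1 and RRM2, with no match in the full window, are shown because the results below turn on them.
MCM2 (chr3:127598311-127598430, plus strand): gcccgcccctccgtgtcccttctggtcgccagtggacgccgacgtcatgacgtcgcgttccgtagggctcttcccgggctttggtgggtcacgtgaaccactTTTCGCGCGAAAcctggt
MCM3 (chr6:52284723-52284842, minus strand): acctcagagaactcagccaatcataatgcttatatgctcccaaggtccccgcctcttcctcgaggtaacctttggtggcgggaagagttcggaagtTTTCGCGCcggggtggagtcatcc
MCM7 (chr7:100101378-100101497, minus strand): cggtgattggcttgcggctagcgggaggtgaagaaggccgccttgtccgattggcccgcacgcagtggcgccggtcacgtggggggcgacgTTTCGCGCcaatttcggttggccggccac
CDC6 (chr17:40287779-40287898, plus strand): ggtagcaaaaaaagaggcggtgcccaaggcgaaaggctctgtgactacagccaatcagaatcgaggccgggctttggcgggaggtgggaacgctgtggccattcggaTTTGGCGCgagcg
GINS2 (chr16:85688935-85689054, minus strand): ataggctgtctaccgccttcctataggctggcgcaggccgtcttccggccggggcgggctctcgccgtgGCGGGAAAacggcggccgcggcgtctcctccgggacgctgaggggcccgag
PCNA (chr20:5126603-5126722, minus strand): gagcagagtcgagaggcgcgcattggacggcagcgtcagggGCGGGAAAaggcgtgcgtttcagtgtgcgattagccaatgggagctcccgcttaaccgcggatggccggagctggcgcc
UHRF1 (chr19:4909401-4909520, plus strand): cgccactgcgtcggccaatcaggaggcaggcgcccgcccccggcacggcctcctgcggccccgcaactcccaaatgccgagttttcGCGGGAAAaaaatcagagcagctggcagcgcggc
FEN1 (chr11:61792811-61792930, plus strand): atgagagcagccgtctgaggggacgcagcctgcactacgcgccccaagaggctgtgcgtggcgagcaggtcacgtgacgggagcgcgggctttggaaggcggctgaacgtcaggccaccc
RFC1 (chr4:39366343-39366462, minus strand): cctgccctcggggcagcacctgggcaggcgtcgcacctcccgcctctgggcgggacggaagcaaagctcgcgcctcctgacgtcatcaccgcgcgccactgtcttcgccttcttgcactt
RRM2 (chr2:10122639-10122758, plus strand): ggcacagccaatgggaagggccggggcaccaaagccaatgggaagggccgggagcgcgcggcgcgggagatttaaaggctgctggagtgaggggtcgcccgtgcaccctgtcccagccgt

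In control cells the levels of the members spanned from 2.22 ± 0.554 FPKM (SD, n = 3) for POLA2, the regulatory subunit of polymerase alpha, to 134 ± 37.2 FPKM for PCNA, the sliding clamp. TK1, the thymidine kinase of S phase, was next at 101 ± 16.0 FPKM. The 6 subunits of the MCM2-7 ring, which assemble in equal numbers, lay within a 2.51-fold range, from 23.1 ± 4.39 FPKM for MCM5 to 58.0 ± 17.5 FPKM for MCM7. With calcium the range of the ring widened to 3.74-fold, from MCM2 at 4.99 ± 1.94 FPKM to MCM4 at 18.7 ± 3.38 FPKM. The control libraries differed as a whole: replicate 2 was the highest of the 3 for all 46 members and replicate 3 the lowest for 43. The median SD of a member on the log2 scale was 0.424 in control, against 0.216 over all genes tested. With GSK4716 and DES it was 0.182 and 0.228, and with cadmium and DES+cadmium 1.23 and 1.35.

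With calcium the levels of the replication genes were lower than in control in every role. The medium for calcium held no serum and that of control is not named, so calcium and serum cannot be told apart here. All 46 members were lower than in control, and the 3 calcium libraries lay under the 3 control libraries for all 46, against 13.6% of all genes tested. In limma on log2(FPKM + 0.1), with Benjamini-Hochberg adjustment over all genes tested and a threshold of 0.05, 38 of the 46 fell, against 2.53% of genes called lower. The median log2 fold change of the members was -1.68, and that of all genes -0.01. The range ran from -2.65 for MCM2 to -0.72 for RPA3, a subunit of the single-strand binding protein RPA. The 8 that were not called, named after their values were seen, were POLD2, POLE, POLA1, POLA2, PRIM1, RFC1, GINS3 and GINS4, with log2 fold changes of -1.59 to -0.74.

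**Figure D2:**
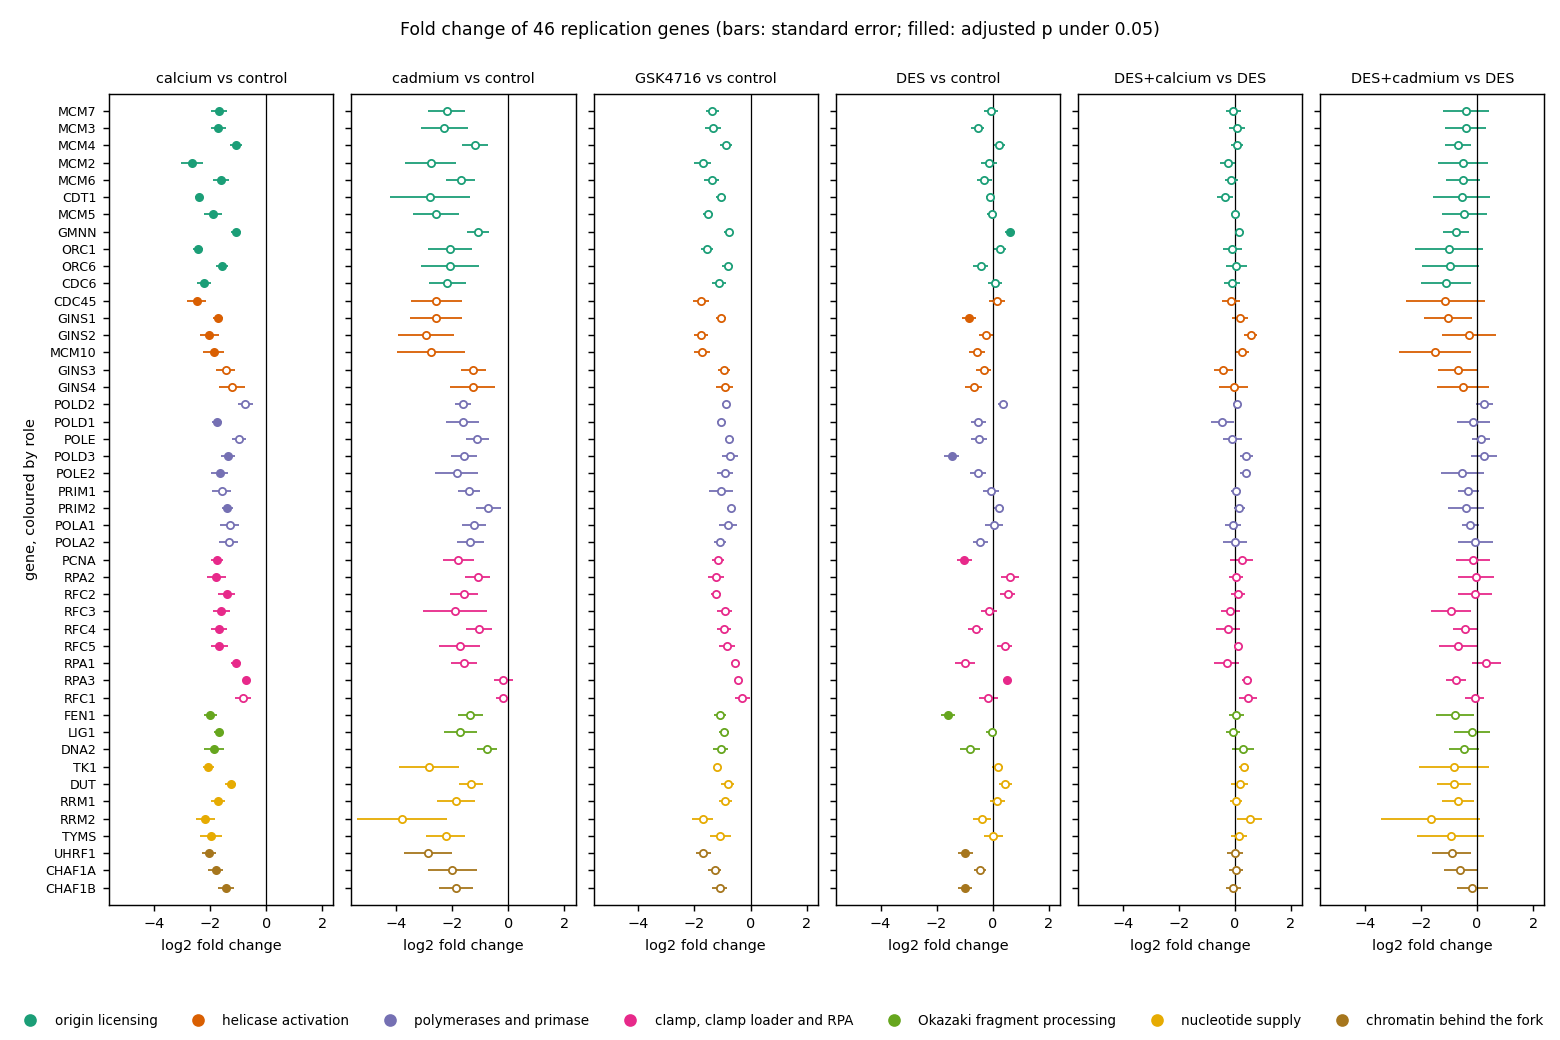
Log2 fold changes of the 46 members (vertical axis, coloured by role) in 6 comparisons (panels, one horizontal log2 axis each), with bars of 1 standard error and filled points for an adjusted p under 0.05 (limma). With calcium all 46 points lie left of 0 and 38 are filled, with cadmium all 46 lie left of 0, most with wider bars, and none is filled, and with DES 8 are filled.

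Licensing genes fell together with calcium, 11 of 11, at a median log2 fold change of -1.71. MCM2 (ENSG00000073111, chromosome 3, 127598223 to 127622436) was at 30.6, 42.8 and 20.6 FPKM in the control libraries and at 5.38, 6.70 and 2.88 FPKM with calcium. The groups were well apart, and the mean in control was 6.28 times that with calcium (log2 fold change -2.65, standard error 0.39, adjusted p = 0.0208). CDT1 (ENSG00000167513, chromosome 16, 88803213 to 88809258), which brings the ring to the origin, was at 25.6, 30.2 and 25.4 FPKM in control and at 5.17, 5.62 and 4.43 FPKM with calcium. Its libraries agreed closely within each group, and its log2 fold change of -2.39 had a standard error of 0.14 (adjusted p = 0.00745). ORC1, the largest subunit of the origin recognition complex, fell by 2.43 (adjusted p = 0.00862) and CDC6, the loader ATPase, by 2.22 on the log2 scale (adjusted p = 0.0123). GMNN, the inhibitor of CDT1, fell less, from 11.96 ± 2.48 to 5.56 ± 0.663 FPKM (SD, n = 3), with a difference of -1.08 on the log2 scale (adjusted p = 0.0285). The ratio of CDT1 to GMNN within a library, a pair chosen after its values were seen, went from a mean log2 of 1.19 ± 0.147 in control to -0.13 ± 0.275 with calcium, and the 2 groups did not overlap. A lower ratio was not particular to calcium: it was 0.46 ± 0.191 with DES, -0.06 ± 0.400 with DES+calcium and 0.90 ± 0.209 with GSK4716. With cadmium and DES+cadmium the ratio was -0.53 ± 2.33 and 0.66 ± 1.32. Within the ring the other 5 subunits fell by 1.08 (MCM4) to 1.89 (MCM5) on the log2 scale.

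Of the genes that activate the helicase, 4 of 6 fell, at a median of -1.79. CDC45 (ENSG00000093009, chromosome 22, 19479459 to 19520612), the partner of the ring in the active helicase, was at 19.0, 32.1 and 14.9 FPKM in control and at 3.998, 4.80 and 2.53 FPKM with calcium. No calcium library came near the lowest control library (log2 fold change -2.49, standard error 0.35, adjusted p = 0.0192). GINS2 fell by 2.04, MCM10 by 1.87 and GINS1 by 1.72 on the log2 scale. GINS3 and GINS4 were at -1.45 and -1.23 with adjusted p of 0.0545 and 0.181.

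Polymerase and primase genes were the role with the smallest share of limma calls, 4 of 9, and had a median of -1.37. The 4 were POLD1 (-1.75, adjusted p = 0.0114), the catalytic subunit of polymerase delta, POLD3 (-1.37, adjusted p = 0.0306), the epsilon subunit POLE2 (-1.66, adjusted p = 0.0312) and the primase subunit PRIM2 (-1.39, adjusted p = 0.0180). PRIM2 has near-copies in the genome and its counts are uncertain. POLD2 (ENSG00000106628), the subunit that bridges the polymerase delta complex, was at 41.4, 50.8 and 39.3 FPKM in control and at 30.1, 34.1 and 17.2 FPKM with calcium. All 3 calcium libraries were lower, but its log2 fold change of -0.74 did not pass (standard error 0.27, adjusted p = 0.175). POLE, the catalytic subunit of polymerase epsilon, was at -0.96 (adjusted p = 0.0723). Limma-voom called every gene of this role but POLD2, so the small share of calls did not hold under it. No difference between roles was tested.

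Of the clamp, its loader and RPA, 8 of 9 fell, at a median of -1.61. PCNA (ENSG00000132646, chromosome 20, 5114953 to 5126626) was at 126, 175 and 102 FPKM in control and at 35.1, 43.9 and 38.3 FPKM with calcium. The highest calcium library was under the lowest control library by a wide margin (log2 fold change -1.75, standard error 0.22, adjusted p = 0.0138). PCNA has pseudogene copies that could share its reads, as does DUT. Among the 5 subunits of the clamp loader RFC, RFC2 to RFC5 fell by 1.40 to 1.68 on the log2 scale. RFC1, the large subunit, was at 7.40, 8.05 and 4.56 FPKM in control and at 2.73, 3.74 and 4.45 FPKM with calcium, so that the 2 groups nearly touched (-0.84, adjusted p = 0.145). RPA2 fell by 1.78, RPA1 by 1.08 and RPA3 by 0.72 on the log2 scale.

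All 3 genes of Okazaki fragment processing fell, FEN1, the flap nuclease, by 1.99, DNA2, the second flap nuclease, by 1.87 and LIG1, the ligase that seals the fragments, by 1.70 on the log2 scale. All 5 genes of nucleotide supply fell too, at a median of -1.97. RRM2 (ENSG00000171848, chromosome 2, 10120698 to 10131419), the S phase subunit of ribonucleotide reductase, was at 30.8, 57.7 and 25.05 FPKM in control and at 5.76, 9.19 and 9.003 FPKM with calcium. Its control libraries were spread over more than its calcium libraries, and it fell by 2.17 on the log2 scale (standard error 0.35, adjusted p = 0.0252). TK1 fell from 101 ± 16.0 to 24.2 ± 5.60 FPKM (SD, n = 3), with a difference of -2.07 on the log2 scale (adjusted p = 0.00951). DUT, the dUTPase that keeps uracil out of DNA, fell less, by 1.27 on the log2 scale (adjusted p = 0.0199). Of the chromatin genes, UHRF1, which carries DNA methylation through replication, fell by 2.04, and the histone chaperone subunits CHAF1A and CHAF1B by 1.80 and 1.42 on the log2 scale.

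The direction with calcium did not depend on a single library, but the number of calls did. The median of the members stayed between -1.89 and -1.44 with any library left out, while without control replicate 1 the number of members called was 0, as for 0% of genes lower, and without control replicate 2 it was 4. Without calcium replicates 1, 2 and 3 it was 10, 11 and 19, and without control replicate 3 it was 36. With no filter on low values it was 2, and with all 7 groups in one fit 6. The 12 housekeeping genes were at mean differences from control of 0.22 to 0.44 in the calcium libraries. Limma-voom on the recovered fragments called 43, against 4.21% of genes lower. Of the members, 13 were on the study's own list of genes lowered in common, matched by gene identifier (MCM6, MCM7, CDC6, GINS3, POLA2, PRIM1, POLD1, PCNA, RFC2, RPA2, FEN1, TYMS and CHAF1B), which was drawn from these libraries, so their direction is not independent evidence. Among them 10 of 13 were called with calcium, and 28 of the other 33. The study lists these 13 as lower than control under GSK4716 and cadmium too, by tests that were not run here. Limma called 0 of the 13 under cadmium and 0 under GSK4716, so those calls of the study were not reproduced. At an unadjusted p under 0.05, 13 were lower under cadmium and 12 under GSK4716.

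**Figure D3:**
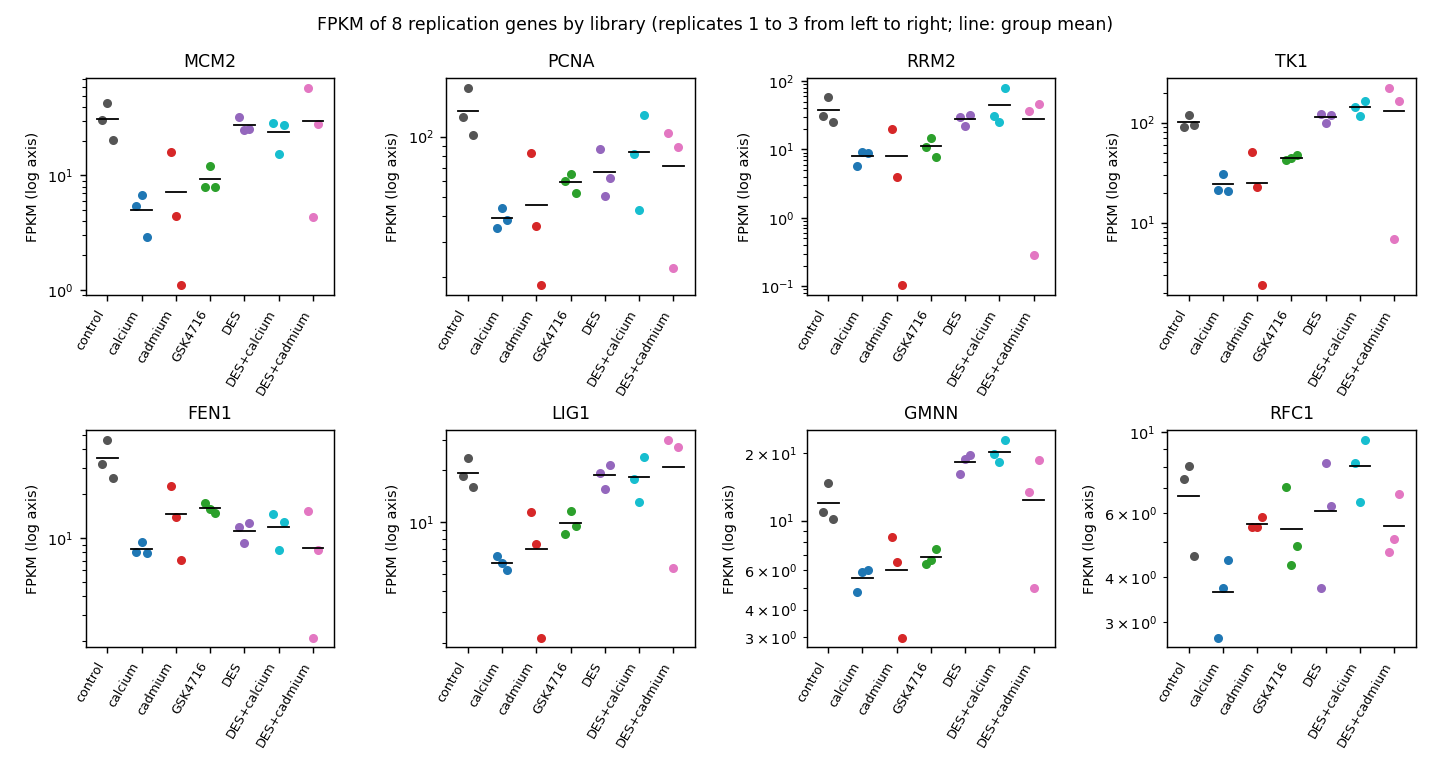
FPKM (vertical log axes) of 8 members in the 7 groups (horizontal axes), with 1 point for each library and a line at the group mean. All 8 are lower with calcium than in control in all 3 libraries, MCM2, RRM2, TK1, LIG1 and GMNN are within or above the control range with DES+calcium in at least 2 libraries, FEN1 is low in all groups with DES, and RFC1 overlaps between most groups.

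Cadmium was followed by lower mean levels, with a spread between libraries that left 0 members called by limma, against 0.0204% of genes called lower. All 46 members had a lower mean on the log2 scale than control, with a median of -1.73 (all genes 0.04), and 33 had an unadjusted p under 0.05, against 12.4% of genes lower at that level. The libraries did not overlap, cadmium lower, for 34 members, against 16.7% of genes. Limma-voom called 1 member, POLD2, against 1.66% of genes lower. Without cadmium replicate 1 the number called by limma was 20, against 5.5% of genes. Leaving out cadmium replicate 3, which stood apart, moved the median to -1.05 and left 0 called.

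The 3 cadmium libraries differed widely. Replicate 1 was the highest for 45 members and replicate 3 the lowest for 43, at mean differences from control over the members of -0.59, -1.61 and -3.19 for replicates 1, 2 and 3. The mitosis genes differed from control by -0.57, -0.44 and -5.73 in the same libraries, and the part of such a difference between libraries in the result was not tested. RRM2 was at 20.1, 3.95 and 0.103 FPKM with cadmium, the last resting on 9 fragments. Its mean log2 fold change of -3.80 had a standard error of 1.59 (adjusted p = 0.198), and it was the largest in size among the members. MCM2 was at 16.1, 4.39 and 1.09 FPKM, all under the lowest control library (-2.77, adjusted p = 0.137). CDT1 was at 17.9, 9.56 and 0.237 FPKM (-2.80, adjusted p = 0.264), and MCM10, a helicase activator, at 3.09, 1.28 and 0.0112 FPKM, the last a single fragment.

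By role, the medians with cadmium were -2.58 for helicase activation, -2.23 for nucleotide supply, -2.18 for licensing, -2.00 for chromatin, -1.57 for the clamp, loader and RPA, -1.39 for polymerases and primase and -1.36 for Okazaki processing. These are medians of uncalled values and no difference between roles was tested. POLD2 had the smallest p of the 46: at 19.6, 9.30 and 15.3 FPKM, it lay under control in every library, at -1.62 with a standard error of 0.28 (adjusted p = 0.0625). RPA3, at 10.4, 10.1 and 4.50 FPKM, and RFC1, at 5.47, 5.47 and 5.85 FPKM, overlapped with control. Their log2 fold changes were -0.18 (95% interval -0.99 to 0.64) and -0.21 (-0.78 to 0.37).

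**Figure D4:**
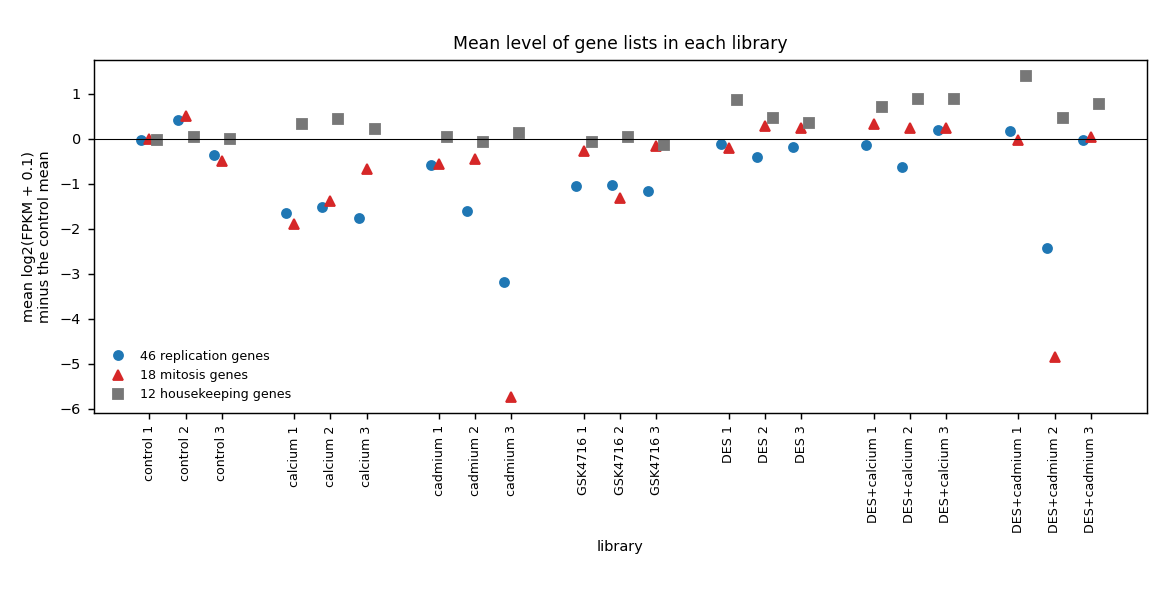
Mean difference from control on the log2(FPKM + 0.1) scale (vertical axis) of 46 replication, 18 mitosis and 12 housekeeping genes in each of the 21 libraries (horizontal axis). The replication genes are at -1.76 to -1.52 in the calcium libraries and at -1.17 to -1.04 with GSK4716, and they differ widely between libraries with cadmium and with DES+cadmium.

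With GSK4716 the members were lower in all 3 libraries by a like amount. All 46 had a lower mean than control, with a median of -1.05, against 0 for all genes, and the libraries did not overlap for 45 of the 46, against 11.5% of genes lower. Limma called 0 members, as for 0% of genes lower. At an unadjusted p under 0.05 there were 44 members, against 8.69% of genes lower, and limma-voom called 16, against 0.313% of genes lower. With any library left out the number called by limma was 0 and the median between -1.22 and -0.84. The adjusted p of the members ranged from 0.129 to 0.645.

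By role, the medians with GSK4716 were -1.39 for helicase activation and -1.35 for licensing, then chromatin (-1.27), nucleotide supply (-1.08), Okazaki processing (-1.06), the clamp, loader and RPA (-0.93) and polymerases and primase (-0.87), and no difference between roles was tested. GINS2 was at 8.996, 11.3 and 6.08 FPKM in control and at 2.36, 2.61 and 2.34 FPKM with GSK4716. Its treated libraries were nearly equal (log2 fold change -1.77, standard error 0.23, adjusted p = 0.139 in limma). CDC45 and MCM10 were at -1.77 and -1.73. MCM5 had a small error, from 22.9, 27.6 and 18.8 FPKM to 7.34, 9.16 and 7.44 FPKM (-1.51, standard error 0.17, adjusted p = 0.129). TK1 went from 101 ± 16.0 to 44.4 ± 2.61 FPKM (SD, n = 3), at -1.18 with the same adjusted p. PCNA was at 60.1, 64.9 and 52.3 FPKM with GSK4716, under every control library (-1.15, adjusted p = 0.142). RFC1 alone overlapped with control, at -0.29 (95% interval -0.97 to 0.40).

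Calcium, cadmium and GSK4716 were each compared with the same 3 control libraries, so a like direction in the 3 comparisons is not independent. Side by side, MCM2 was at -2.65, -2.77 and -1.71, PCNA at -1.75, -1.79 and -1.15, POLD1 at -1.75, -1.63 and -1.04, and RRM2 at -2.17, -3.80 and -1.71 with calcium, cadmium and GSK4716. RFC1 and RPA3 were among the members with the smallest log2 fold changes in each of the 3.

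With DES alone the members were near control as a group, and a few of them differed. Against control, 30 members were lower and 16 higher, with a median of -0.15 (all genes 0.05). Limma called 6 lower, against 12.9% of genes, and 2 higher, against 16.7% of genes. The libraries did not overlap, DES lower, for 8 members, against 22.9% of genes. The count of members called lower was at the background share, and the count called higher was under it.

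FEN1 (ENSG00000168496, chromosome 11, 61792637 to 61797244) fell most with DES. It was at 32.0, 46.4 and 25.7 FPKM in control and at 11.8, 9.22 and 12.6 FPKM with DES, with no overlap (log2 fold change -1.59, standard error 0.24, adjusted p = 0.00512). FEN1 overlaps TMEM258 and FADS2, so that reads may be shared. POLD3, a subunit of polymerase delta, fell from 11.1, 13.1 and 7.30 FPKM to 4.81, 3.27 and 3.05 FPKM (-1.47, adjusted p = 0.00987). PCNA was at 86.8, 50.8 and 61.96 FPKM, all under the lowest control library (-1.01, adjusted p = 0.0324). CHAF1B (-1.001, adjusted p = 0.0246), UHRF1 (-0.98, adjusted p = 0.0323) and GINS1 (-0.85, adjusted p = 0.0468) fell as well. GMNN rose to 16.2, 18.9 and 19.6 FPKM, above all control libraries (0.62, adjusted p = 0.0449), and RPA3 rose to 14.2, 11.6 and 12.2 FPKM (0.51, adjusted p = 0.0417). RPA3 overlaps UMAD1 and CHAF1B overlaps MORC3, so their reads may be shared as well. With scaling to total fragments, which moved the median of all genes from 0.05 to -0.12, neither GMNN nor RPA3 was called and 7 members were called lower.

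Licensing and nucleotide supply genes had medians of -0.05 and 0.16 with DES. Of these 16 genes GMNN alone was called by limma, and it was higher. MCM2 was at 32.2, 24.8 and 25.5 FPKM with DES, within the range of the control libraries (-0.14, 95% interval -0.78 to 0.51), and TK1 at 123, 99.9 and 119 FPKM (0.17, 95% interval -0.26 to 0.60). The other medians were -0.14 for the clamp, loader and RPA, -0.44 for polymerases and primase, -0.44 for helicase activation, -0.81 for Okazaki processing and -0.98 for chromatin. Without control replicate 1, DES replicate 2 or DES replicate 3 the number of members called was 2, and without control replicate 2 it was 3. With no filter on low values it was 1. The housekeeping genes were at mean differences from control of 0.36 to 0.85 in the DES libraries, and their part in the result was not tested.

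The ratio between some partner genes was different with DES. The pairs below were chosen after their values were seen and carry no test. Within a library FEN1 was above LIG1 in control, at a mean log2 ratio of 0.82 ± 0.148 (SD, n = 3), and under it with DES, at -0.74 ± 0.0249. The ratio was -0.61 ± 0.302 with DES+calcium and -1.34 ± 0.357 with DES+cadmium, while it was 0.53 ± 0.179 with calcium and 1.18 ± 0.436 with cadmium. All 9 libraries with DES were thus under all 12 without it. POLD3 to POLD2, subunits of the same polymerase, went from -2.08 ± 0.289 to -3.90 ± 0.202, PCNA to RFC2, the clamp and a subunit of its loader, from 2.35 ± 0.102 to 0.81 ± 0.255, and RPA1 to RPA2 from -1.74 ± 0.357 to -3.35 ± 0.429. POLD3 overlaps AP001372.2, so its reads may be shared too.

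**Figure D5:**
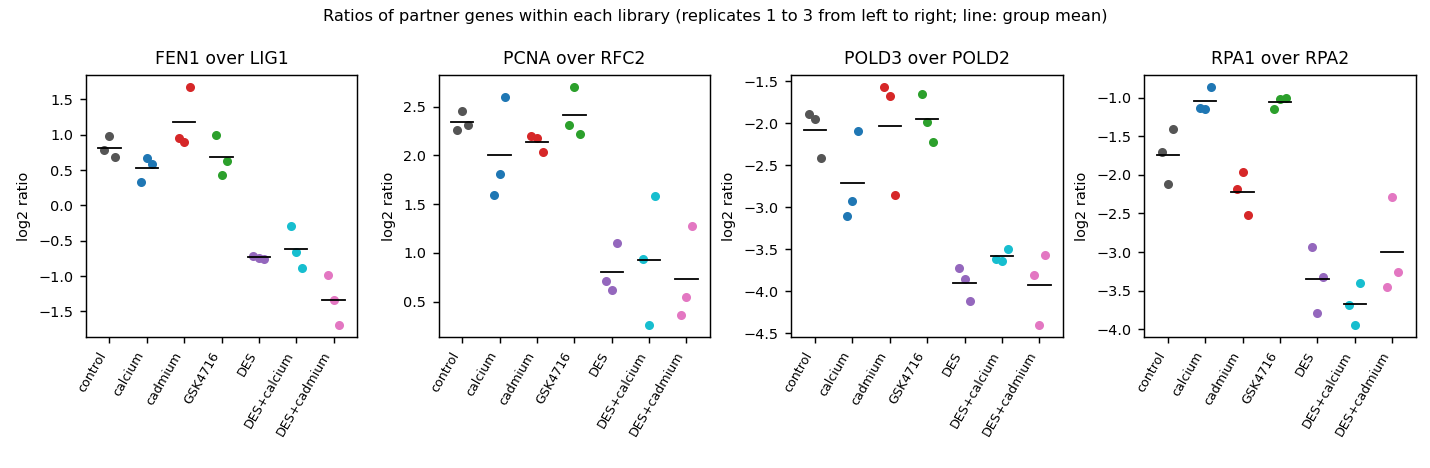
Log2 ratio of FPKM between partner genes within each library (vertical axes) in the 7 groups (horizontal axes), with 1 point for each library and a line at the group mean. FEN1 over LIG1 is above 0 in all 12 libraries without DES and under 0 in all 9 with DES.

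Calcium added after DES left the replication genes near their level with DES alone. Against DES, 29 members were higher and 17 lower, with a median of 0.05 (all genes 0.0012) and a range of -0.45 for POLD1 to 0.57 for GINS2. Without DES+calcium replicate 2 there were 3 lower (median 0.22), and without DES+calcium replicate 3 there were 30 lower (median -0.12). Limma called 0, against 0.136% of genes in either direction, and 2 had an unadjusted p under 0.05, GINS2 and RPA3, both higher, against 13.2% of genes. Limma-voom called 0 as well, as for 0% of genes, and so did the fit in which equal replicate numbers were paired. MCM2 was at 28.7, 15.3 and 27.4 FPKM with DES+calcium, where replicate 2 was under all DES libraries and the other two within their range (-0.25, 95% interval -0.91 to 0.40). PCNA was at 81.9, 42.8 and 127 FPKM (0.24, 95% interval -0.78 to 1.25), and RRM2 at 30.6, 25.5 and 79.5 FPKM (0.53, 95% interval -0.53 to 1.59). For CDT1 (-0.37, 95% interval -1.06 to 0.33) and POLD1 (-0.45, 95% interval -1.43 to 0.53) a fall of 1 on the log2 scale lies inside both intervals. DES+calcium replicate 2 was the lowest of its group for 42 members and replicate 3 the highest for 37.

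The difference between the effect of calcium with DES and without it was tested as an interaction. It was above 0 for all 46 members, with a median of 1.70 (all genes -0.02) and a range of 0.78 for RPA1 to 2.70 for RRM2. Limma called 26 of the 46, against 1.25% of genes called higher, and limma-voom 34, against 1.59% of genes higher. By role the number called was 7 of 11 for licensing, 4 of 6 for helicase activation, 4 of 9 for polymerases and primase, 3 of 9 for the clamp, loader and RPA, 2 of 3 for Okazaki processing, 4 of 5 for nucleotide supply and 2 of 3 for chromatin. TK1 had the smallest adjusted p, at 2.38 (standard error 0.28, adjusted p = 0.00311), from 21.3, 30.7 and 20.8 FPKM with calcium against 145, 117 and 163 FPKM with DES+calcium. Both groups were thus on different sides of the control range of 90.1 to 119.7 FPKM, save for 1 library of DES+calcium within it. GINS2 was at 2.61 (adjusted p = 0.0119), MCM2 at 2.39 (adjusted p = 0.0270), ORC1 at 2.34 (adjusted p = 0.0128), CDC6 at 2.12 (adjusted p = 0.0172) and FEN1 at 2.04 (adjusted p = 0.0153). PCNA was at 1.98 with an adjusted p of 0.0516, and POLD2 at 0.82 with 0.189.

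The interaction shares the control, calcium and DES libraries with the comparisons above. The limits on medium and on ethanol given for the comparisons with control hold for it as well. FEN1, POLD3, UHRF1 and GINS1 were already lower with DES alone, which enters their interaction: FEN1 was at 8.03, 9.37 and 7.91 FPKM with calcium and at 14.5, 8.24 and 12.9 FPKM with DES+calcium, both under the control libraries. The number of members called was 9 without DES replicate 2, 10 without control replicate 1, 11 without control replicate 2 or DES+calcium replicate 1, 15 without DES replicate 3, and 17 without calcium replicate 1 or DES+calcium replicate 3. With no filter on low values it was 3 and with all 7 groups in one fit 0, and the median was the same by construction.

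Cadmium added after DES gave libraries that differed from each other more than from DES. Against DES, 42 members were lower and 4 higher, with a median of -0.50 (all genes -0.04). Limma called 0, against 0.266% of genes in either direction, with 0 at an unadjusted p under 0.05, against 8.03% of genes lower, and limma-voom called 0, as for 0% of genes. The mean of the members relative to control was 0.17 and -0.03 in replicates 1 and 3 and -2.44 in replicate 2, which was the lowest of its group for 44 members. With any library left out the median ranged from -1.01 to 0.38, the highest being without DES+cadmium replicate 2. RRM2 was at 37.0, 0.285 and 46.7 FPKM, TK1 at 223, 6.90 and 166 FPKM and MCM2 at 58.4, 4.30 and 28.1 FPKM, so that 2 libraries were at or above the DES level and the third far under it. Replicate 2 was also the lowest for the mitosis genes, which were at -0.03, -4.85 and 0.04.

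The interaction of cadmium with DES was above 0 for 45 of 46 members, RPA3 being the exception (-0.57, adjusted p = 0.570), with a median of 1.27 (all genes -0.09). With a library left out the median ranged from 0.50 without cadmium replicate 3 to 2.14 without DES+cadmium replicate 2. Limma called 0, against 1.18% of genes in either direction, and 4 members had an unadjusted p under 0.05, all higher, against 6.91% of genes. Limma-voom called 0. POLD2 was closest to the threshold (1.88, standard error 0.44, adjusted p = 0.0626), and GINS2 had the highest estimate with a wide error (2.65, standard error 1.48).

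Of 44 other genes of replication, 43 were tested. With calcium 17 were called lower by limma, against 2.53% of all genes, and 0 higher, with a median of -0.99. DTL, which directs the destruction of CDT1, went from 17.97 to 2.95 FPKM on average (-2.52, adjusted p = 0.0123), the histone chaperone ASF1B from 27.6 to 5.77 FPKM (-2.23, adjusted p = 0.0123), and the fork protein WDHD1 from 6.60 to 1.45 FPKM (-2.09, adjusted p = 0.0324). SAMHD1, which breaks down dNTPs, POLD4 and DCTD were the 3 with higher means, at 1.49, 1.04 and 0.17, none of them called. DTL, WDHD1 and MCM8 are on the study's own list drawn from these libraries, so the direction of these 3 is not independent evidence. With cadmium and GSK4716 the medians were -1.02 and -0.74 with 0 called, and 18 and 26 lower at an unadjusted p under 0.05, against 12.4% and 8.69% of all genes. With DES 3 rose and 4 fell, of 43, where 16.7% of all genes were called higher and 12.9% lower, so these counts were under the background. The calcium interaction was called higher for 7, against 1.25% of all genes, among them DTL (2.45, adjusted p = 0.0221) and WDHD1 (2.63, adjusted p = 0.0295).

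The mitosis genes were lower with calcium too, at a median of -1.37 with 3 of 18 called, against 2.53% of all genes, but their libraries differed, at -1.89, -1.38 and -0.68. The proliferation marker MKI67 was at -1.68 (adjusted p = 0.132) and TOP2A, topoisomerase II alpha, at -2.04 (adjusted p = 0.120). With GSK4716 the mitosis genes had a median of -0.62 and library means of -0.28, -1.32 and -0.17, while the replication genes were at -1.06, -1.04 and -1.17 in the same libraries. Whether the replication and mitosis lists differ in their response was not tested.

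Members with and without an E2F-type octamer had like values with calcium, at medians of -1.69 (n = 20) and -1.68 (n = 19). With GSK4716 they were -1.07 and -1.05, with cadmium -1.87 and -1.74, and for the calcium interaction 1.71 and 1.63. MCM2 and CDC45 had the largest falls of each kind with calcium, at -2.65 with an octamer in its window and -2.49 without. Only exact copies of the listed octamers were searched, so a member without one may hold another form of the site. A window of CDC45 holds TTTGGCGG, which differs from TTTGGCGC in the last base and was not counted. A difference between members with and without an octamer was not tested.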

How the data were processed

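Poly-A RNA of 21 libraries of MDA-MB-453 cells was sequenced, 3 in each of 7 groups. The values deposited by the authors are FPKM for each gene in each library, beside the length of the gene. The submitters' processing notes name HISAT2 2.0.5 and featureCounts 1.5.0-p3, and the genome is GRCh38.p14. The study's methods name DESeq2 and edgeR, which were not run here. The protocol describes both directional and non-directional libraries without saying which was made, so overlapping genes are uncertain: 14 members overlap a gene with at least 10% of their own mean FPKM.

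The product of FPKM and length came in whole steps (tolerance 0.01) for 100% of values, which gave back fragments. No pair of libraries shared the same fragment number for more than 4.97% of genes. The authors' library size was 0.693 to 1.15 times the fragments on genes. Mitochondrial genes held 4.88 to 9.75% of fragments in libraries without DES and 1.97 to 5.31% in those with it. A count of 0 allows up to 3 fragments, and depth covers counting error only.

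Tests were limma 3.58.1 in R 4.3.3 (lmFit, and eBayes with its trend option) on log2(FPKM + 0.1), fitted to the groups compared and to the 14686 genes whose mean reached 0.5 FPKM, two-sided, with Benjamini-Hochberg adjustment over all genes tested and a threshold of 0.05. Fold changes on this scale understate those of low genes. The interaction was the effect of the metal with DES minus its effect without. For 3 against 3 libraries an exact permutation test cannot give a p under 0.1. The alternatives were a pseudocount of 1, no filter, a mean of at least 2 FPKM, median-ratio and total-fragment scaling, all 7 groups in one fit, limma-voom on recovered fragments, a minimum size of 1 for the log2 fold change, a replicate block, and each library left out. The steps were tested on simulated data. Figures used Python 3.11.15, pandas 2.3.3, numpy 2.4.6 and matplotlib 3.10.9.

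The members and lists were chosen with earlier results of these data known. The rule for genes named took the 2 members of each role with the highest mean FPKM, the 3 with the largest and the 1 with the smallest log2 fold change in each comparison, the MCM2-7 ring and single exceptions to a direction, which gave 27 genes. All other members in the text were picked with their values in view. Of the other replication genes, the 3 with the largest change with calcium were named, with the exceptions in direction. Equal replicate numbers were taken to pair libraries where all 3 correlations of their deviations from the group means were over 0.1. That held for DES+calcium against DES (0.132, 0.103 and 0.280) and DES+cadmium against DES (0.472, 0.121 and 0.313). The highest correlation between unequal numbers was 0.0428 and 0.270 in these comparisons. For DES+cadmium it was over that of the equal pair at 0.121, so the pairing there is uncertain. The values of 1 marker of the line are not reported here.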

Additional observations from a re-analysis of the deposited data

Results flagged for a closer look

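The effect of calcium differed between cells with and without DES for 26 of the 46 members (limma interaction, adjusted p under 0.05), against 1.25% of genes called higher. The count was 9 to 31 with a library left out, 3 with no filter on low values and 0 with all 7 groups in one fit. The named members among them, all with a calcium effect that with DES was less negative or above 0, differed by these amounts on the log2 scale. In licensing the differences were 2.39 for MCM2, 2.34 for ORC1, 2.12 for CDC6, 2.03 for CDT1, 1.90 for MCM5, 1.79 for MCM3 and 1.24 for GMNN. In helicase activation they were 2.61 for GINS2, 2.35 for CDC45, 2.12 for MCM10 and 1.90 for GINS1. In the polymerases, the clamp group and Okazaki processing they were 1.77 for POLD3, 1.81 for RPA2, 1.15 for RPA3, 2.04 for FEN1 and 1.63 for LIG1. In nucleotide supply they were 2.70 for RRM2 and 2.38 for TK1, and in chromatin 2.05 for UHRF1 and 1.85 for CHAF1A. Groups of 3 libraries were not tested for single outlying libraries. The limits on medium and on ethanol given for the comparisons with control hold here too.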

How the results depend on the processing

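Of 240 values of named genes, 57 changed sign under at least 1 alternative, none of them called. With calcium, the 38 members called became 2 with no filter, 6 with all 7 groups in one fit and 22 with a replicate block, and 0 to 36 with a library left out. With cadmium, the 0 called became 12 with all 7 groups in one fit and 1 with limma-voom, and 0 to 20 with a library left out, the 20 being without cadmium replicate 1. With GSK4716, the 0 called became 16 with limma-voom, and stayed 0 with each library left out. With DES, the 8 called became 1 with no filter, 2 with all 7 groups in one fit, 2 with a replicate block, 4 when the log2 fold change also had to reach 1 in size, and 2 to 8 with a library left out. For DES+calcium and DES+cadmium against DES the count was 0 under every alternative. That includes the replicate block, and equal numbers were taken to pair the libraries in these comparisons. For the calcium interaction, the 26 became 3 with no filter and 0 with all 7 groups in one fit, and 9 to 31 with a library left out, and the replicate block gave 26. For the cadmium interaction, the 0 became 1 with a pseudocount of 1, with all 7 groups in one fit and with a replicate block, and 0 to 1 with a library left out. In the other 4 comparisons the numbers were not taken to pair the libraries. No filter and all 7 groups in one fit change the genes or libraries that set the spread; the cause of the other changes was not tested. Total-fragment scaling moved the median of all genes from -0.01 to -0.13 with calcium, from 0.0012 to -0.13 with DES+calcium against DES and from -0.04 to -0.24 with DES+cadmium against DES. Under it, DES+calcium against DES had 31 members lower instead of 17, with a median of -0.09, and 0 called. For 30 named genes in 8 comparisons, 3318 alternative values stayed on their side of the threshold with their sign where called, 328 lost and 74 gained significance. Depth limits members with fewer than 30 fragments in a library, which are MCM10, RRM2, TYMS, ORC1, GINS4, ORC6, CDT1, GINS2 and POLE2 with cadmium or DES+cadmium.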
